A study of Sus scrofa with 2 samples.

Results

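Macrophage-like nuclei of the pig renal cortex were selected on measured UMI counts, and were the 174 of 12955 nuclei that carried transcripts of the scavenger receptors CD163 and MRC1 or of the growth factor receptor CSF1R and passed limits on genes of other cell types. A nucleus was taken when it had 500 to 6000 detected genes and at least 2 unique molecular identifiers (UMIs, each 1 captured transcript) of CD163, MRC1 and CSF1R together. It also had to hold no UMI of the T cell genes THEMIS and CD2. Per 10000 UMIs it had to hold fewer than 15 of the endothelial genes FLT1, PTPRB, TEK, EMCN and ADGRL4, fewer than 30 of the proximal tubule genes LRP2 and CUBN, fewer than 20 of the thick limb gene SLC12A1 and fewer than 50 of the sodium-calcium exchanger SLC8A1. The unperfused library gave 51 such nuclei of 7035 and the perfused library 123 of 5920.

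The study put forward the hypothesis that hyperfiltration of glomeruli may activate the mechanosensitive MRTF-SRF pathway directly. It compared pig cortex before and after ex vivo perfusion by single-nucleus RNA sequencing. Pig kidneys from a slaughterhouse were flushed with heparinized buffered saline and kept at 4 °C for about 2 h until perfusion. The unperfused cortex was taken before perfusion, and whether this was before or after the cold storage was not stated. The perfused cortex was taken after 120 min of perfusion at 100 mmHg and 37 °C with a balanced salt solution that held neither albumin nor red blood cells. There was 1 library per condition, the age, sex and strain of the pigs were not given in the sources used here, and whether both pieces came from 1 animal was not stated.

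Macrophages are phagocytes that populate the interstitium of the kidney between the tubules and capillaries. They depend on CSF1R signalling for their survival, clear debris and haemoglobin complexes through scavenger receptors such as CD163 and MRC1, make the first component of complement and present antigen on MHC class II. In the kidney they are known for their part in injury, repair and fibrosis.

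The libraries held 7179 unperfused and 6205 perfused barcodes, with 34415254 and 35525592 UMIs. The member nuclei held 198819 UMIs in the unperfused library (median 2853 per nucleus, range 664 to 20335) and 550031 in the perfused library (median 3144, range 691 to 22011). Levels are given as CPM, which is a gene's UMIs per 1000000 UMIs of the members, so that 1 UMI was worth 5.03 CPM in unperfused and 1.82 CPM in perfused members. With 1 library per condition no difference below has a replicate check or a p-value, and the exact 95% intervals given cover counting error only. Levels were not scaled to gene length and count intronic reads, so they were compared between libraries and nuclei for the same gene, not between genes. No barcode was shared between the libraries among the members, against 14 shared among all barcodes.

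The perfused members differed from the unperfused ones in the RNA they carried, and so did other sets of nuclei. Mitochondrially encoded UMIs took a median of 0.255% of an unperfused and 0.877% of a perfused member's UMIs, against 0.0732% and 0.113% in all other nuclei. At least 1 UMI of 16 stromal marker genes, which are those of fibroblasts (C7, COL1A1, DCN and others) and of mesangial and smooth muscle cells (ACTA2, RGS5, PDGFRB and others), was found in 70.6% of unperfused and 86.2% of perfused members. The same was true of 31.6% and 44.0% of all other nuclei. The median number of stromal UMIs was 2 in an unperfused and 8 in a perfused member. These traits were not particular to members. In T-gate nuclei (defined below) the median mitochondrial share was 0.231% unperfused and 0.680% perfused. Of these nuclei 70% and 76.5% held a stromal UMI, with medians of 1 and 9. In stromal-gate nuclei (defined below) the median mitochondrial share was 0.113% and 0.549%. Several of the results that move with the stromal genes are given below with and without the nuclei that carried them.

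The rule was strict on the side of other cell types. Of eligible nuclei with at least 2 UMIs of the 3 rule genes, 117 unperfused and 299 perfused, the limits left out 66 and 176. The endothelial limit left out 20 and 96 of these, the T cell genes 13 and 70, the proximal tubule genes 23 and 19, SLC12A1 8 and 21 and SLC8A1 11 and 10. The highest endothelial value inside the rule was 13.9 per 10000 UMIs for unperfused and 14.99 for perfused members, and the lowest outside 16.1 and 15.5. For LRP2 and CUBN the highest values inside were 29.2 and 28.7 and the lowest outside 31.9 and 35.0. For SLC12A1 they were 13.3 and 19.6 inside and 20.4 and 26.7 outside, and for SLC8A1 44.2 and 47.9 inside and 53.4 and 60.3 outside. At the lower edge, 22 unperfused and 42 perfused members had exactly 2 UMIs of the rule genes, and 70 and 171 nuclei that met every limit had 1 and were not taken.

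The rule genes were shared unevenly among the members. CD163, the receptor for haptoglobin-haemoglobin complexes, was detected in 28 of 51 unperfused and 79 of 123 perfused members. MRC1, the mannose receptor, was detected in 36 and 75, and CSF1R, the receptor for the macrophage growth factors CSF1 and IL34, in 27 and 71. Transcripts of all 3 genes were found together in 11 unperfused and 23 perfused members, and of only 1 of them in 22 and 44. The median member held 3 UMIs of the rule genes in either library, and the richest held 12 and 34. CD163 stood at 402 CPM (319 to 501) in unperfused and 398 CPM (347 to 455) in perfused members. MRC1 stood at 327 (252 to 417) and 355 CPM (307 to 408), and CSF1R at 287 (217 to 371) and 280 CPM (238 to 328). The intervals of the libraries overlapped for each of the 3 genes, which chose the members and are given as a description only.

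The label has 3 further markers that the rule did not use. They were chosen with earlier results of these data known, so their levels are a description and no check of the label. RUNX1, a transcription factor of blood cells, was at 699 CPM in unperfused and 702 CPM in perfused members, against 28.3 and 82.9 CPM in all other nuclei. FGD2, a guanine nucleotide exchange factor of antigen-presenting cells, was at 206 and 193 CPM, against 5.05 and 12.5 CPM elsewhere. CST3, the protease inhibitor cystatin C, was at 1127 and 1198 CPM, against 55.2 and 160 CPM elsewhere. The 3 markers were thus higher in members than in other nuclei of both libraries, and their perfused over unperfused log2 ratios within members were 0.01, -0.10 and 0.09, each with an interval that included 0. RUNX1 is not particular to these nuclei, since 54 T-gate nuclei (at least 2 UMIs of THEMIS and CD2, no UMI of the rule genes and the other limits met) had it at 981 CPM before and 1061 CPM after perfusion. Nor is CST3, which was at 153 and 516 CPM in stromal-gate nuclei and at 313 and 385 CPM in members without a stromal UMI.

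Summed over a list of 21 macrophage markers, of which 19 are in the files, the members held 4823 CPM before and 4911 CPM after perfusion, with CST3 the most counted. The sum was 3067 and 3576 CPM in T-gate nuclei, where the pan-leukocyte phosphatase PTPRC was most counted, and 614 and 1302 CPM in stromal-gate nuclei (all limits met, no UMI of the rule genes and at least 5 stromal UMIs, a set defined after the data were seen). In endothelial-gate nuclei it was 444 and 787 CPM and in tubule-gate nuclei 472 and 459 CPM. The list holds the rule genes, so its height in members is partly given by the rule. Only SIGLEC1, the sialoadhesin of resident macrophages, was at 0, in the perfused members, and it had 1 UMI in the unperfused ones.

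**Figure D1:**
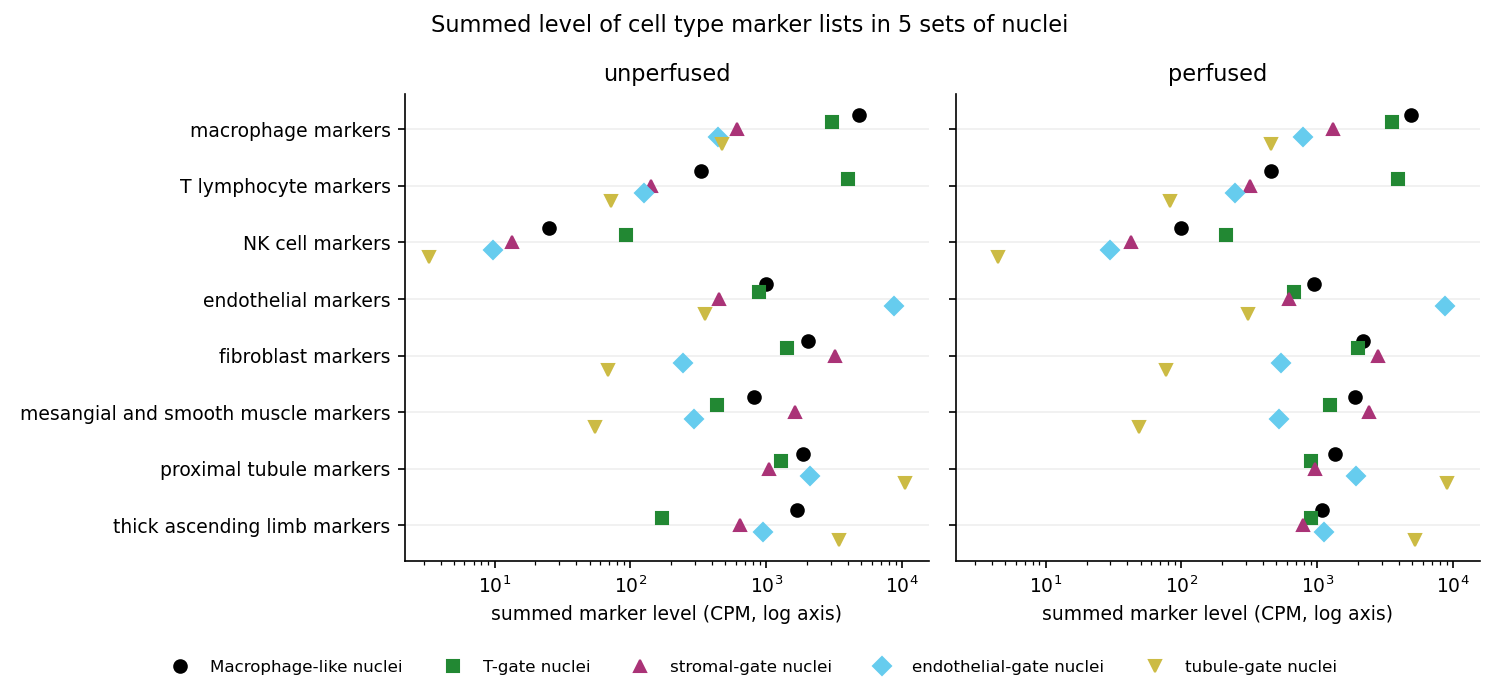
Summed level of marker lists in CPM (horizontal log axis) in members and 4 comparison sets of nuclei, with each library in its own panel. The lists are macrophage, T lymphocyte, natural killer, endothelial, fibroblast, mesangial and smooth muscle, proximal tubule and thick ascending limb. The macrophage list was highest in members in both libraries, at 4823 and 4911 CPM, and the fibroblast list was at 2032 and 2176 CPM in the same nuclei.

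Lists of other leukocytes were summed in the same way. The T lymphocyte list summed to 332 CPM in unperfused and 460 CPM in perfused members, mostly through the adaptor SKAP1, while CD3G had no UMI in either library. The natural killer list was at 25.1 and 99.99 CPM, led by the cytolytic gene GNLY. The neutrophil list was at 5.03 and 5.45 CPM, all of it CSF3R, against 3.44 and 2.56 CPM in all other nuclei. Its genes S100A8 and S100A12 had no UMI in any nucleus of either library, so their 0 does not set the members apart. The dendritic cell list was at 35.2 and 58.2 CPM, with 4 and 20 UMIs of its growth factor receptor FLT3. The B lymphocyte list reached 1896 and 1942 CPM, but through EBF1 and BANK1. The B cell antigen MS4A1 and the receptor component CD79B had no UMI in members and at most 4 UMIs in all other nuclei of a library. EBF1, at 1267 and 1431 CPM in members, was at 2130 and 1969 CPM in stromal-gate nuclei. The mast cell list summed to 231 CPM in unperfused and 139.99 CPM in perfused members, against 134 and 103.4 CPM in all other nuclei. Most of it was the receptor KIT, with 41 and 73 UMIs in members, while HDC and HPGDS were at 0. The plasma cell list was at 80.5 and 160 CPM.

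The stromal lists were not near 0. Fibroblast markers summed to 2032 CPM in unperfused and 2176 CPM in perfused members, led by the complement gene C7 (1091 and 965 CPM), against 3203 and 2817 CPM in stromal-gate nuclei. Mesangial and smooth muscle markers summed to 815 CPM in unperfused and 1884 CPM in perfused members, led by ACTA2, the actin of contractile cells, against 1626 and 2404 CPM in stromal-gate nuclei. The endothelial list was at 991 and 940 CPM, with PECAM1 most counted. The proximal tubule list was at 1876 and 1353 CPM, against 6394 and 5862 CPM in all other nuclei. That list holds CUBN, which the rule limits, so its lower level in members is partly given by the rule. The thick ascending limb list, led by UMOD, was at 1690 and 1080 CPM in members, and at 2346 and 449 CPM in members without a stromal UMI, which were thus not free of transcripts of other cell types nor alike in them between the libraries. Over 6 tubule genes summed, of which the rule limits 3, the members' level was 28.6% (unperfused) and 18.7% (perfused) of that of all eligible nuclei. These shares served as the estimate of free RNA in the setting that subtracts it. As the rule itself bounds 3 of the 6 genes in members, the estimate is partly set by the rule. Values from that setting are thus given as a description only. Whether a member with such transcripts was 1 nucleus, a pair, or a nucleus with free RNA was not tested. Scrublet called 3 unperfused and 4 perfused members doublets, against 604 and 486 of all eligible barcodes (8.59% and 8.21%).

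By the ratio of members over all other nuclei, taken in the library where it was lower, the 15 leading genes outside the rule were BANK1, OSR1, FGD2, C1QB, MARCHF1, IL10RA, STAB1, NAV3, KCNIP1, PLXNC1, ARRB1, VAV1, RUNX1, LCP2 and PRKCB. Several have well known roles in macrophages. C1QB, a chain of the first complement component, was at 221 CPM (161 to 297) in unperfused and 204 CPM (168 to 245) in perfused members, against 2.88 and 13.7 CPM in all other nuclei. STAB1, the scavenger receptor stabilin-1, was at 141 and 131 CPM against 6.32 and 9.18 CPM. IL10RA, the receptor chain for the anti-inflammatory cytokine IL-10, was at 186 and 145 CPM against 6.41 and 10.6 CPM. The intervals of unperfused and perfused members overlapped for each of these 3 genes.

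MARCHF1, the ubiquitin ligase that removes MHC class II from the surface, was at 282 CPM in unperfused and 242 CPM in perfused members, and at 11.2 and 19.9 CPM in all other nuclei. BANK1, an adaptor best known from B cells, was at 614 CPM (510 to 733) and 504 CPM (446 to 567), and at 13.5 and 27.8 CPM elsewhere. OSR1, a zinc finger factor known from kidney development, was at 282 CPM (213 to 366) and 395 CPM (344 to 451), and at 15.3 and 23.4 CPM elsewhere. For BANK1 and OSR1 the highest level outside the members among 4 sets was 109 CPM, for OSR1 in the unperfused T-gate nuclei. VAV1, LCP2 and PRKCB, which carry signals from immune receptors, were as high or higher in T-gate nuclei: VAV1 had 131 and 135 CPM in members and 140 and 174 CPM in T-gate nuclei.

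Of the others, NAV3, a microtubule-binding protein, was at 307 and 269 CPM in members, PLXNC1, a semaphorin receptor, at 231 and 240 CPM, and ARRB1, beta-arrestin 1, at 292 and 298 CPM. KCNIP1, a subunit of potassium channels, was at 201 CPM (144 to 274) and 138 CPM (109 to 173). The differences from other nuclei are a description, because the rule that chose these nuclei used genes measured in the same cells.

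The share of members among eligible nuclei was higher in the perfused library. Members made up 0.725% (0.540 to 0.952, exact binomial interval) of unperfused and 2.08% (1.73 to 2.47) of perfused nuclei, a ratio of 2.87 (2.05 to 4.05), and the intervals of the shares did not overlap. T-gate nuclei made up 0.284% (20 nuclei) and 0.574% (34 nuclei), with intervals of 0.174 to 0.439 and 0.398 to 0.802. Endothelial-gate nuclei made up 22.6% and 19.6%, tubule-gate nuclei 43.3% and 44.2% and stromal-gate nuclei 3.75% and 5.88%. A nucleus type's share depends on every other type in the piece, so a higher share need not be a higher number of nuclei.

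The share was also taken apart by stromal transcripts. Members without any stromal UMI numbered 15 of 7035 unperfused nuclei (0.213%, 0.119 to 0.351) and 17 of 5920 perfused nuclei (0.287%, 0.167 to 0.459). Their ratio was 1.35 (0.633 to 2.90), and the intervals of the shares overlapped. Eligible nuclei without a stromal UMI numbered 4793 and 3264, and members made up 0.313% and 0.521% of these. Among nuclei with 1 to 2 stromal UMIs members made up 0.794% and 1.51%, and with 3 to 9 1.61% and 4.86%. With 10 to 19 they made up 3.21% and 4.13%, and with 20 or more 6.99% and 10.6%. Members with at least 1 stromal UMI numbered 36 (0.512%) and 106 (1.79%), a ratio of 3.50. With members of 20 or more stromal UMIs left out, 41 and 87 remained and the ratio was 2.52. The part of stromal transcripts in the higher share was not tested.

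**Figure D2:**
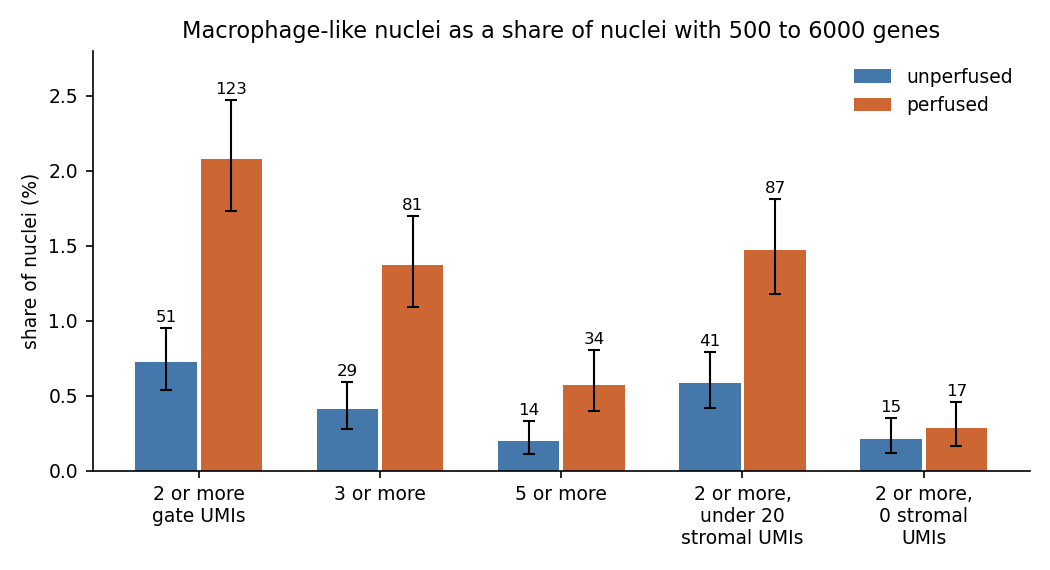
Share of eligible nuclei in percent (vertical axis) in the unperfused and the perfused library, with exact 95% binomial intervals. The groups are members, members with at least 3 and at least 5 rule gene UMIs, with under 20 stromal UMIs and without a stromal UMI. The number of nuclei stands above each bar. The member bars stand at 0.725% and 2.08%, and the bars of members without a stromal UMI at 0.213% and 0.287% with overlapping intervals. Every bar is a share of all eligible nuclei. Of eligible nuclei without a stromal UMI alone, members made up 0.313% and 0.521%.

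The rule genes were also counted in nuclei past the tubule limits, which should lack them. Of these, with a median of 5204 unperfused and 6494 perfused UMIs, 3.52% and 4.56% held at least 1 UMI of CD163, MRC1 and CSF1R. At least 2 UMIs were held by 0.982% (0.668 to 1.39) and 1.46% (1.04 to 1.98). Of nuclei inside the tubule limits, which include the members, 2.22% (1.78 to 2.73) and 8.15% (7.22 to 9.16) held at least 2 UMIs. Of nuclei that met every limit, with medians of 3806 and 3503.5 UMIs, 2.49% (1.86 to 3.26) and 7.46% (6.24 to 8.84) held at least 2 UMIs. By the rule these are the members themselves, 51 of 2049 and 123 of 1648, so the values restate their share and are no background. With every barcode thinned to 1000 UMIs, 22 unperfused and 46 perfused members remained (0.322% and 0.825%).

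The members differed among themselves by how many rule gene UMIs they held. For 15 macrophage markers outside the rule, nuclei that met the limits but held none of the rule genes stood at 200 CPM in the unperfused library, and those with 1 UMI at 648 CPM. Unperfused members with 2 rule gene UMIs stood at 1208 CPM, with 3 to 4 at 4068 CPM, with 5 to 9 at 4255 CPM and with 10 or more at 5357 CPM. In the perfused library the corresponding levels were 364, 1401, 2024, 2491, 3568 and 3051 CPM. Markers that the rule did not use were thus higher in nuclei with more rule gene UMIs in the unperfused library, and up to 5 to 9 UMIs in the perfused one. At 2 UMIs the perfused level was the higher, and at 3 to 4 the unperfused one, with intervals of 3476 to 4732 and 2275 to 2722 CPM that did not overlap.

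The stromal markers followed another course. In the unperfused library they stood at 664 CPM in nuclei with no rule gene UMI, 2840 CPM in members with 2, 1792 CPM with 3 to 4, 4058 CPM with 5 to 9 and 2928 CPM with 10 or more. In the perfused library they were highest in members with 2 (5071 CPM) and with 3 to 4 (4574 CPM), and lower with 5 to 9 (2641 CPM) and with 10 or more (3073 CPM). The top bins held few nuclei, 4 unperfused and 12 perfused, so their levels rest on little material.

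**Figure D3:**
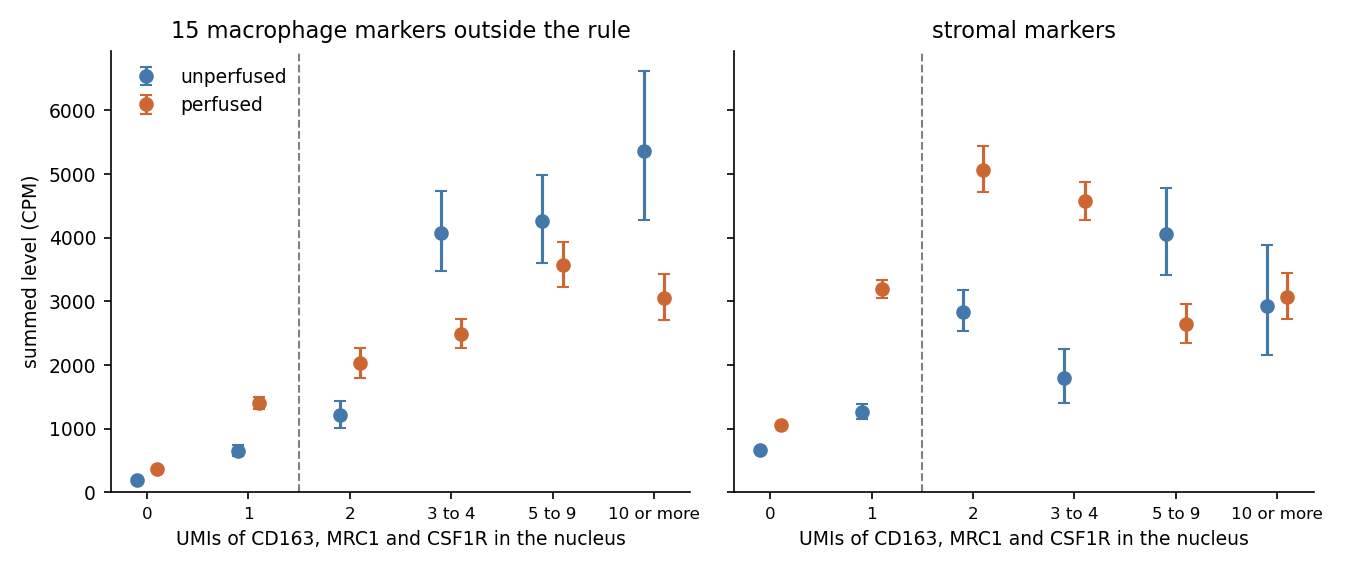
Summed level in CPM (vertical axes) of 15 macrophage markers outside the rule (left) and 16 stromal markers (right) against the number of rule gene UMIs per nucleus, with exact 95% Poisson intervals and the threshold of the rule as a dashed line. Macrophage markers go from 200 and 364 CPM at 0 UMIs to 5357 and 3051 CPM at 10 or more, and stromal markers peak at 5 to 9 UMIs in the unperfused and at 2 UMIs in the perfused library.

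Several genes differed in level between members without and with a stromal UMI, not all of them the same way in both libraries. BANK1 was at 1095 CPM without and 499 CPM with a stromal UMI in unperfused members and at 946 and 447 CPM in perfused members, and OSR1 at 678 and 187 and at 705 and 355 CPM. Both genes were higher in the members that held no stromal transcript. CST3 went the other way, at 313 and 1321 CPM in unperfused and 385 and 1302 CPM in perfused members. So did CD74, the invariant chain of MHC class II, at 391 and 1060 and at 705 and 1852 CPM, and COX3, a mitochondrially encoded subunit of cytochrome oxidase, at 261 and 1751 and at 481 and 5178 CPM. RUNX1 was lower without a stromal UMI in unperfused members, at 365 and 779 CPM, and higher without one in perfused members, at 1042 and 658 CPM. PTPRC was close in both sets, at 495 and 424 CPM in unperfused and 465 and 459 CPM in perfused members. The median mitochondrial share was 0.178% without and 0.437% with a stromal UMI in unperfused members, and 0.125% and 1.12% in perfused members.

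Between the libraries, 3684 genes had at least 50 UMIs in the members of both together, and their median perfused over unperfused log2 ratio was 0.02. Of these genes 176 (4.78%) were at least 2-fold higher and 95 (2.58%) at least 2-fold lower in the perfused library, 7.36% in either direction. The 5th percentile of the ratios was -0.82 and the 95th 0.99. With no minimum of UMIs per gene 1260 genes were past 2-fold higher and 2742 past 2-fold lower, so that 31.5% of these were higher. With TMM scaling factors in place of the totals, the median was 0.15 and the share of higher genes among those past 2-fold went from 64.9% to 78.9%. Against these shares each gene group is read. The share of all genes with an interval that excluded 0 is not given, so counts of such intervals in a group are a description only.

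Of the 17 scavenger receptors in the files, 9 had at least 50 UMIs, none of these was past 2-fold, and their median log2 ratio was 0.07. The list holds the rule genes CD163 and MRC1, whose counts inside and outside the members are bound by the rule, so nothing is read from the median. MSR1, the class A scavenger receptor, had 32 and 66 UMIs (161 and 120 CPM, log2 ratio -0.42, interval -1.05 to 0.23). MERTK, which binds dying cells, was at 267 and 280 CPM, and COLEC12, a collectin receptor, at 463 and 545 CPM. VSIG4, the complement receptor of resident macrophages, was at 75.4 and 78.2 CPM. Each of these intervals included 0. MARCO, another class A receptor, had 4 UMIs in unperfused and none in perfused members, and the lymphatic and resident macrophage receptor LYVE1 had none and 1.

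The factors of macrophage identity gave a median of 0.13 over the 8 genes at 50 UMIs, none of them past 2-fold. ZEB2, a repressor needed for tissue macrophage identity, was at 1041 and 1091 CPM, and MITF, of the family that controls lysosome genes, at 342 and 393 CPM. IKZF1, a lymphoid and myeloid zinc finger factor, was at 95.6 and 153 CPM (0.68, -0.05 to 1.48). MEF2C, a factor of myeloid and muscle cells, was higher in the perfused library at 282 and 467 CPM (log2 ratio 0.73, 0.31 to 1.17), and it was the only one of the 8 with an interval that excluded 0. Of its 257 perfused UMIs 33 lay in 1 nucleus. It was detected in 47.1% of unperfused and 55.3% of perfused members, but at 1000 UMIs per nucleus in 18 of 47 (38.3%) and 33 of 116 (28.4%), with overlapping intervals. SPI1, the master factor of the myeloid lineage, had 6 and 32 UMIs (30.2 and 58.2 CPM).

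Complement genes were mostly level, with a median of -0.02 over 6 genes. C1QA was at 85.5 and 90.9 CPM and C1QC at 85.5 and 70.9 CPM, and with C1QB their log2 ratios were 0.09, -0.27 and -0.12. In all other nuclei the same 3 genes had ratios of 2.29, 2.34 and 2.25, so they were higher outside the members of the perfused library while their levels within the members were close. C3, the central complement component, was at 126 and 111 CPM. CFD, the serine protease factor D of the alternative pathway, was the 1 gene past 2-fold, with 5 UMIs in 5 unperfused and 66 UMIs in 34 perfused members (25.1 and 120 CPM, log2 ratio 2.25, 0.96 to 3.92). It was at 26.1 and 32.1 CPM in members without a stromal UMI, from 1 and 2 UMIs, and at 24.9 and 131 CPM in members with one, which held 64 of the 66 perfused UMIs. Its level in endothelial-gate nuclei was 75.1 and 68.0 CPM.

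Antigen presentation genes had a median of 0.18 over 5 genes and none past 2-fold. CD74 had 185 UMIs in 38 unperfused and 947 UMIs in 106 perfused members, 930.5 CPM against 1722 CPM (log2 ratio 0.89, 0.66 to 1.12). With members thinned to 1000 UMIs it was detected in 48.9% and 69.0% of them, with overlapping intervals, against 74.5% and 86.2% at full depth. Its ratio was 0.77 in all other nuclei and 1.57 in stromal-gate nuclei. CIITA, the activator of the class II genes, was at 176 and 233 CPM (0.40, -0.15 to 0.99), and SLA-DQB1, a class II chain of the pig, at 352 and 398 CPM (0.18, -0.22 to 0.59). CD83 and CD86, which mark activated antigen-presenting cells, were at 121 and 133 CPM and at 65.4 and 69.1 CPM. The median turned to -0.22 at a minimum of 3 rule gene UMIs.

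Lysosomal genes gave a median of 0.23 over 13 genes, with none past 2-fold. The cathepsins B, C and S were at 251 and 267, 267 and 347 and 231 and 271 CPM, and PSAP, the precursor of the saposins, at 241 and 216 CPM. No interval of the 13 excluded 0. Iron and haem genes gave a median of -0.12 over 6. FTL, the ferritin light chain, was at 1086 and 1344 CPM (0.31, 0.09 to 0.53), and SLC40A1, the iron exporter ferroportin, was lower in the perfused library at 191 and 111 CPM (-0.79, -1.39 to -0.16). TFRC, the transferrin receptor, was under the minimum with 16 and 15 UMIs, 80.5 and 27.3 CPM (-1.56, -2.68 to -0.45). Among lipid genes, with a median of 0.51 over 5, FABP4 was the 1 past 2-fold (5.23), with 65 of its 104 perfused UMIs in 1 nucleus. The fatty acid binding protein FABP5 was at 221 and 365 CPM (0.72, 0.25 to 1.23) and the cholesterol exporter ABCA1 at 246 and 264 CPM.

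**Figure D4:**
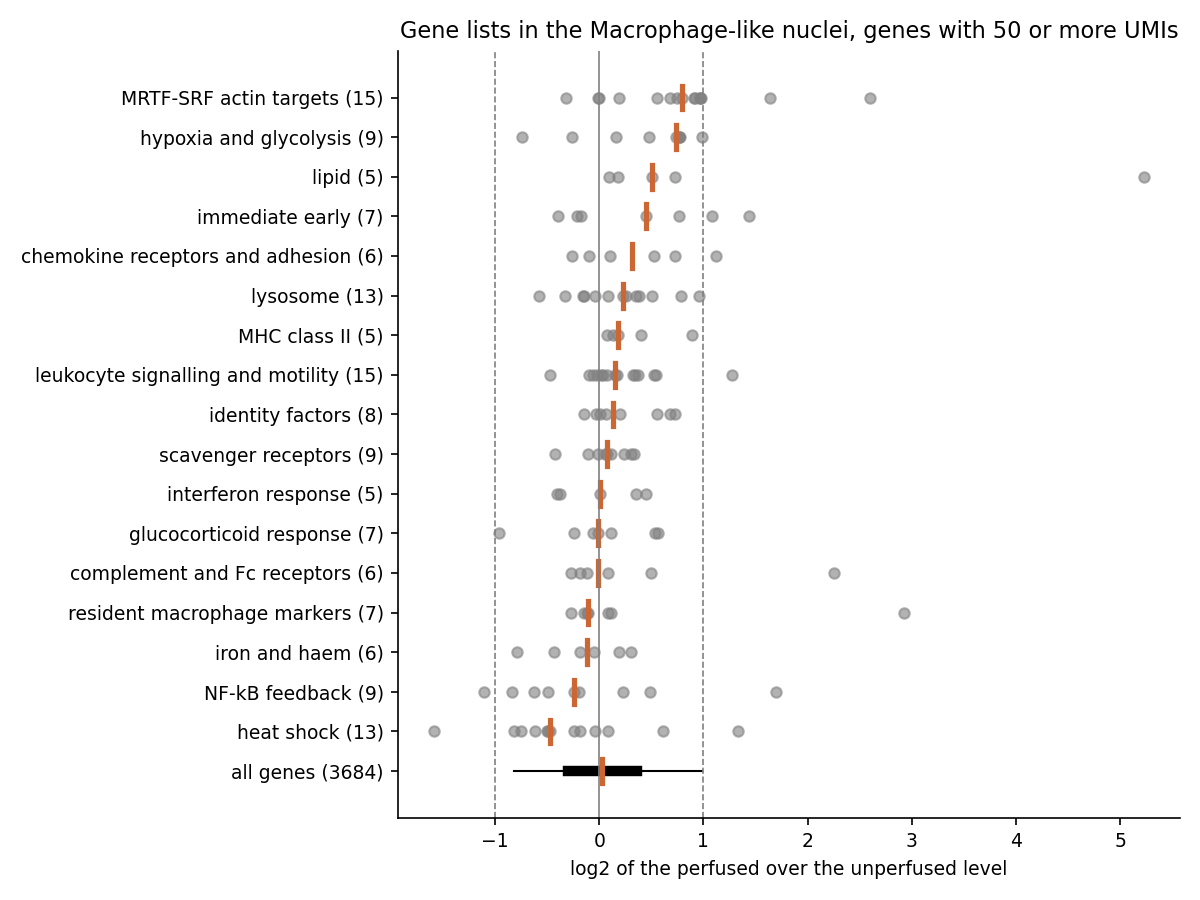
Perfused over unperfused log2 ratio (horizontal axis) of each gene with at least 50 UMIs, by gene list, with a tick at each list's median, and the 5th to 95th and 25th to 75th percentiles of all 3684 genes as bars. Scavenger receptor, complement and lysosome medians lie at 0.07, -0.02 and 0.23, and that of the MRTF-SRF list at 0.79. The mitochondrially encoded and ribosomal protein genes are not drawn as lists.

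Inflammatory cytokines were scarce in both libraries. IL6, TNF, IL1B2, IL12B and CCL3L1 had no UMI in any member, where 3 counts would be 15.1 CPM in unperfused and 5.45 CPM in perfused members. Only the cytokine IL15 (75.4 and 90.9 CPM) and the growth factor TGFB1 (60.4 and 90.9 CPM) reached 50 UMIs, with a median of 0.43. Of the chemokines below that minimum, CCL2 had 8 and 21 UMIs and CXCL12 9 and 27, with log2 ratios of -0.076 and 0.12 whose intervals included 0. CCL5, which draws T cells and monocytes, had 2 UMIs in 1 unperfused nucleus and 38 UMIs in 26 perfused nuclei (10.1 and 69.1 CPM, log2 ratio 2.78, 0.83 to 5.88), and CXCL10, an interferon-induced chemokine, 1 and 26 UMIs (3.23, 0.63 to 8.59). None of these UMIs of CCL5 or CXCL10 lay in a member without stromal transcripts, and CCL5 was at 0 and 114 CPM in T-gate nuclei. At 1000 UMIs per nucleus CCL5 was detected in none of 47 unperfused and 8 of 116 perfused members and CXCL10 in none and 5, with overlapping intervals.

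NF-kB feedback genes had a median of -0.25 over 9 genes, with 1 at least 2-fold higher and 1 at least 2-fold lower. NFKBIZ, an atypical inhibitor of NF-kB, was lower in the perfused library, with 35 and 45 UMIs or 176 and 81.8 CPM (-1.11, -1.78 to -0.43). The deubiquitinase CYLD (166 and 92.7 CPM, -0.84, -1.50 to -0.16) and the caspase-8 regulator CFLAR (307 and 218 CPM, -0.49, -0.95 to -0.02) were also lower. MAP3K8, a kinase downstream of Toll-like receptors, was higher with 5 and 45 UMIs (1.70, 0.37 to 3.39). The median over the same genes was 0.02 in all other nuclei. It was 0.13 in members with the limits on other cell types halved, and NFKBIZ stood at 0.24 without the members of 20 or more stromal UMIs.

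Immediate early genes had a median of 0.45 over 7 genes, with 2 at least 2-fold higher. The median turned to -0.24 at a minimum of 3 rule gene UMIs, -0.99 at 5, -0.072 in the rule without MRC1, -0.15 at 20 UMIs per gene and -0.16 with no minimum. EGR1, an early growth response factor, was at 30.2 and 81.8 CPM (1.44, 0.21 to 2.96), with 15 of its 45 perfused UMIs in 1 nucleus. ATF3, a stress factor, was at 40.2 and 85.4 CPM (1.09, -0.01 to 2.38). JUN was at 101 and 171 CPM (0.76, 0.06 to 1.54) and FOS at 121 and 107 CPM. Heat shock genes had a median of -0.47 over 13, with 1 past 2-fold in each direction, against -0.21 in all other nuclei. BAG3, a co-chaperone, was at 191 and 63.6 CPM (-1.59, -2.29 to -0.89), but 18 of its 38 unperfused UMIs lay in 1 nucleus, and without the richest nucleus of each library the ratio was -0.75. HSPH1, HSPD1, DNAJA1 and HSPA8, chaperones of the cytosol and mitochondria, had ratios of -0.62, -0.81, -0.75 and -0.50, each with an interval below 0. The small heat shock protein HSPB1 was higher, with 18 and 125 UMIs or 90.5 and 227 CPM (1.33, 0.61 to 2.13).

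Hypoxia and glycolysis genes had a median of 0.74 over 9 genes, against 0.12 in all other nuclei, yet none was past 2-fold and the only interval without 0 was that of the hexokinase HK1 (-0.74, -1.44 to -0.02). HIF1A, the oxygen-regulated factor, was at 60.4 and 104 CPM (0.78, -0.13 to 1.81) and the enolase ENO1 at 80.5 and 135 CPM (0.74, -0.05 to 1.62). Glucocorticoid response genes had a median of -0.01 over 7. The receptor NR3C1 was at 342 and 327 CPM and its target FKBP5 at 533 and 451 CPM, while ZBTB16 was higher at 709 and 1049 CPM (0.56, 0.30 to 0.84) and the metallothionein MT1A lower at 121 and 61.8 CPM (-0.97, -1.76 to -0.15). Interferon response genes had a median of 0.01 over 5, none of them past 2-fold, with the antiviral GTPase MX2 at 116 and 158 CPM (0.45, -0.23 to 1.18).

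Leukocyte signalling and motility genes had a median of 0.15 over 15, against 0.90 for the same genes in all other nuclei. PTPRC was at 438 and 460 CPM and the Rac activator DOCK2 at 171 and 173 CPM. PIK3R5, a regulatory subunit of the phosphoinositide 3-kinase of leukocytes, was the 1 gene past 2-fold, with 10 and 67 UMIs or 50.3 and 122 CPM (1.28, 0.31 to 2.40). Of the 15 genes 4 had an interval above 0, PIK3R5 among them, and 1 an interval below 0, counts with no share over all genes beside them. That 1 was VAV3, another exchange factor, at 508 and 367 CPM (-0.47, -0.82 to -0.11).

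Genes that set apart resident and recruited macrophages were few. Of 13 resident markers in the files, 7 reached the minimum with a median of -0.11, and the plasma selenoprotein SELENOP was at 594 and 640 CPM. F13A1, the transglutaminase subunit of coagulation factor XIII that marks some tissue macrophages, was past 2-fold, with 3 UMIs in 3 unperfused and 63 UMIs in 27 perfused members (15.1 and 115 CPM, log2 ratio 2.92, 1.31 to 5.24). In the perfused library it was at 224 CPM in members without and 100 CPM in members with a stromal UMI, and at 4.35 CPM in all other nuclei. CX3CR1, the fractalkine receptor of monocytes and tissue macrophages, had no UMI in 51 unperfused members and 30 UMIs in 17 perfused members (54.5 CPM). With the unperfused 0 set to a floor of 3 counts this was 3.61-fold higher, a value that depends on the floor and is not a lower limit. It was at 160 CPM in perfused members without and 41.0 CPM in those with a stromal UMI, and at 0.867 and 1.36 CPM in all other nuclei of the libraries.

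At 1000 UMIs per nucleus CX3CR1 and F13A1 were each detected in 8 of 116 perfused and none of 47 unperfused members. The interval of that perfused share, 3.02% to 13.1%, overlapped that of the unperfused one, 0% to 7.55%, so a difference in the share of positive members was not detectable at this depth. Of the monocyte genes, the chemokine receptor CCR2 had 1 and 3 UMIs and CD14, the endotoxin co-receptor, 2 and 11, while S100A8, S100A12 and LYZ had no UMI in any nucleus, member or not. The matrix genes VCAN and THBS1, which monocytes share with stromal cells, were at 181 and 255 and at 573 and 693 CPM. Of the chemokine receptor and adhesion genes, 6 reached the minimum with a median of 0.31. The integrin chain ITGA4 was the 1 past 2-fold, at 60.4 and 131 CPM (1.12, 0.22 to 2.13), while the chain ITGAV was at 106 and 175 CPM (0.72, 0.03 to 1.48). At a minimum of 5 rule gene UMIs ITGA4 turned to -1.10.

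Actin targets of the MRTF-SRF pathway, the transcriptional programme that couples actin tension to SRF, were higher in perfused members as a group. Of 15 genes at the minimum 2 were at least 2-fold higher (ACTA2 and MYL9) and none lower, against 4.78% and 2.58% of all 3684 genes. The median was 0.79, against 0.02 for all genes. Intervals lay above 0 for 11 of the 15 and below 0 for none, without a share over all genes to set this against. The list summed to 2922 CPM in unperfused and 4754 CPM in perfused members (log2 ratio 0.70, 0.57 to 0.83). ACTA2 had 47 UMIs in 11 unperfused and 404 UMIs in 68 perfused members (236 and 735 CPM, 1.64, 1.20 to 2.10), and MYL9, the myosin light chain of smooth muscle, 4 and 67 UMIs (2.60, 1.17 to 4.52). The cytoplasmic actins ACTB (251 and 422 CPM, 0.75, 0.30 to 1.22) and ACTG1 (282 and 487 CPM, 0.79, 0.37 to 1.23) and the tropomyosin TPM1 (251 and 496 CPM, 0.98, 0.54 to 1.45) were also higher.

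The same list was higher in the perfused library outside the members too, with a median of 0.62 in all other nuclei and 0.50 in stromal-gate nuclei, where it summed to 4417 and 6246 CPM. ACTA2 is itself a stromal marker and so had no UMI in members without a stromal UMI. In those nuclei MYL9 had 0 and 2 UMIs, ACTB 3 and 13 and ACTG1 6 and 11, too few to compare. At a minimum of 5 rule gene UMIs, with 14 and 34 members, the median of the list was -0.41. The part of stromal transcripts in the higher actin genes was not tested.

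Mitochondrially encoded and ribosomal protein genes made up the largest sets past 2-fold among the lists. Of 10 mitochondrially encoded genes at the minimum 7 were at least 2-fold higher, with a median of 1.31, and COX3 was at 1464 and 4645 CPM (1.67, 1.49 to 1.85). The median of the same genes was 1.47 in all other nuclei and 2.45 in stromal-gate nuclei. Of 62 ribosomal protein genes 15 were at least 2-fold higher and none lower, with a median of 0.80, and RPL3 was at 101 and 269 CPM (1.42, 0.74 to 2.17). Their median was 0.55 in all other nuclei and 0.98 in stromal-gate nuclei. Both sets were higher in the perfused library in members with a stromal UMI, but not in those without one. With one, ribosomal protein genes took 1.62% of unperfused and 2.59% of perfused UMIs, and mitochondrially encoded genes 0.728% and 1.72%. In members without a stromal UMI the shares were slightly lower in the perfused library, at 0.550% and 0.495% for ribosomal protein genes and 0.185% and 0.162% for mitochondrially encoded genes. COX3 went the other way in those members, at 261 and 481 CPM from 10 and 30 UMIs, with overlapping intervals. The difference between members with and without a stromal UMI was not tested. Over all members the mitochondrially encoded list took 6232 and 15468 CPM and the ribosomal protein list 14149 and 23531 CPM.

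The 10 genes in each direction with the largest ratios were taken among those with at least 50 UMIs and an interval without 0. A 2-fold difference was required, and it had to stand without the richest nucleus of each library. For this each gene's highest count in 1 nucleus was subtracted, from 51 unperfused and 123 perfused members, and the totals were kept. These conditions were met by 138 higher and 49 lower genes, counts that are a description only. Higher in the perfused library were FABP4, SLC35F3, F13A1, RASA3, MYL9, ADGRE5, IFNAR1, TTR, LAPTM5 and DES. LAPTM5, a lysosomal membrane protein of blood cells, had 4 UMIs in 4 unperfused and 59 UMIs in 44 perfused members (20.1 and 107 CPM, 2.41, 0.98 to 4.34). RASA3, a GTPase-activating protein, had 4 UMIs in 4 and 69 in 42 members (20.1 and 125 CPM, 2.64, 1.22 to 4.56). IFNAR1, a chain of the type I interferon receptor, had 3 UMIs in 3 and 48 in 36 members (15.1 and 87.3 CPM, 2.53, 0.90 to 4.86). These 3 genes were spread over many perfused nuclei, with at most 4 UMIs in any 1 of them. RASA3 and IFNAR1 had ratios of 0.37 and 0.12 in all other nuclei, and LAPTM5 1.45. At 1000 UMIs per nucleus LAPTM5 was detected in 2 of 47 unperfused and 14 of 116 perfused members and IFNAR1 in 1 and 12, with overlapping intervals, and RASA3 in none and 17, with intervals that did not overlap (0% to 7.55% and 8.78% to 22.4%).

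ADGRE5, the adhesion receptor CD97 of leukocytes, had 4 UMIs in 4 and 66 in 38 members (2.58, 1.15 to 4.49), 15 of them in 1 nucleus. Of the 66, 65 lay in members with a stromal UMI, and ADGRE5 was at 97.7 and 113 CPM in stromal-gate nuclei. Other ratios rested on fewer nuclei. FABP4, the fatty acid binding protein of adipocytes, capillary endothelium and macrophages, had 1 UMI in the unperfused and 104 UMIs in 8 perfused members, of which 65 lay in 1 nucleus and none in a member without a stromal UMI. Its ratio was 5.23 (2.72 to 10.55). Without the richest nuclei no unperfused UMI of FABP4 was left, and the ratio against a floor of 3 counts was 2.23. SLC35F3, a solute carrier, had 3 and 65 UMIs (2.97), 27 of them in 1 nucleus, and TTR, the thyroxine carrier transthyretin, 3 and 48 (2.53), 16 of them in 1 nucleus and all 48 in members with a stromal UMI. DES, the intermediate filament desmin of muscle, had 5 and 67 UMIs (2.28) with 23 in 1 nucleus and none in a member without a stromal UMI, and its ratio was 2.13 in all other nuclei.

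Lower in the perfused library were SLIT2, PLPPR1, GALNTL6, SLC12A3, PLEKHA6, PCDHAC2, KCNJ15, TMEM52B, RYR2 and RUFY1. Several are genes of kidney tubules. SLC12A3, the thiazide-sensitive cotransporter of the distal convoluted tubule, had 49 UMIs in 11 unperfused and 31 UMIs in 10 perfused members (246 and 56.4 CPM, -2.13, -2.83 to -1.45). The list of 4 distal convoluted tubule markers was at 483 and 165 CPM in members and at 446 and 308 CPM in all other nuclei. PLPPR1, a phosphatase-related membrane protein, had 35 and 18 UMIs (-2.43), and its level was 2574 and 934 CPM in tubule-gate nuclei. KCNJ15, a potassium channel, had 37 and 31 UMIs (-1.72) and stood at 542 and 400 CPM in tubule-gate nuclei. Of its unperfused UMIs 15 lay in 1 nucleus, and with the limits on other cell types halved its ratio turned to 0.42. TMEM52B, a kidney membrane protein, had 29 and 25 UMIs (-1.68) and a ratio of -0.96 in all other nuclei.

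SLIT2, a secreted guidance protein, had 142 UMIs in 8 unperfused and 56 UMIs in 14 perfused members (714 and 102 CPM, -2.81, -3.28 to -2.35), but 84 of the unperfused UMIs lay in 1 nucleus and the ratio without the richest nuclei was -1.87. GALNTL6, a glycosyltransferase, had 62 and 36 UMIs (-2.25), 31 of the former in 1 nucleus. RYR2, the cardiac calcium release channel, had 146 UMIs in 15 and 130 in 18 members (734 and 236 CPM, -1.64, -1.99 to -1.28), and 71 of its unperfused UMIs lay in the 15 members without a stromal UMI. PLEKHA6 had 31 and 24 UMIs (-1.84), the protocadherin PCDHAC2 40 and 31 (-1.84) and RUFY1, an endosomal protein, 38 UMIs in 23 and 34 in 23 members (-1.63). RUFY1 was thus the most widely detected of the 10, and its ratio in all other nuclei was -0.72.

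**Figure D5:**
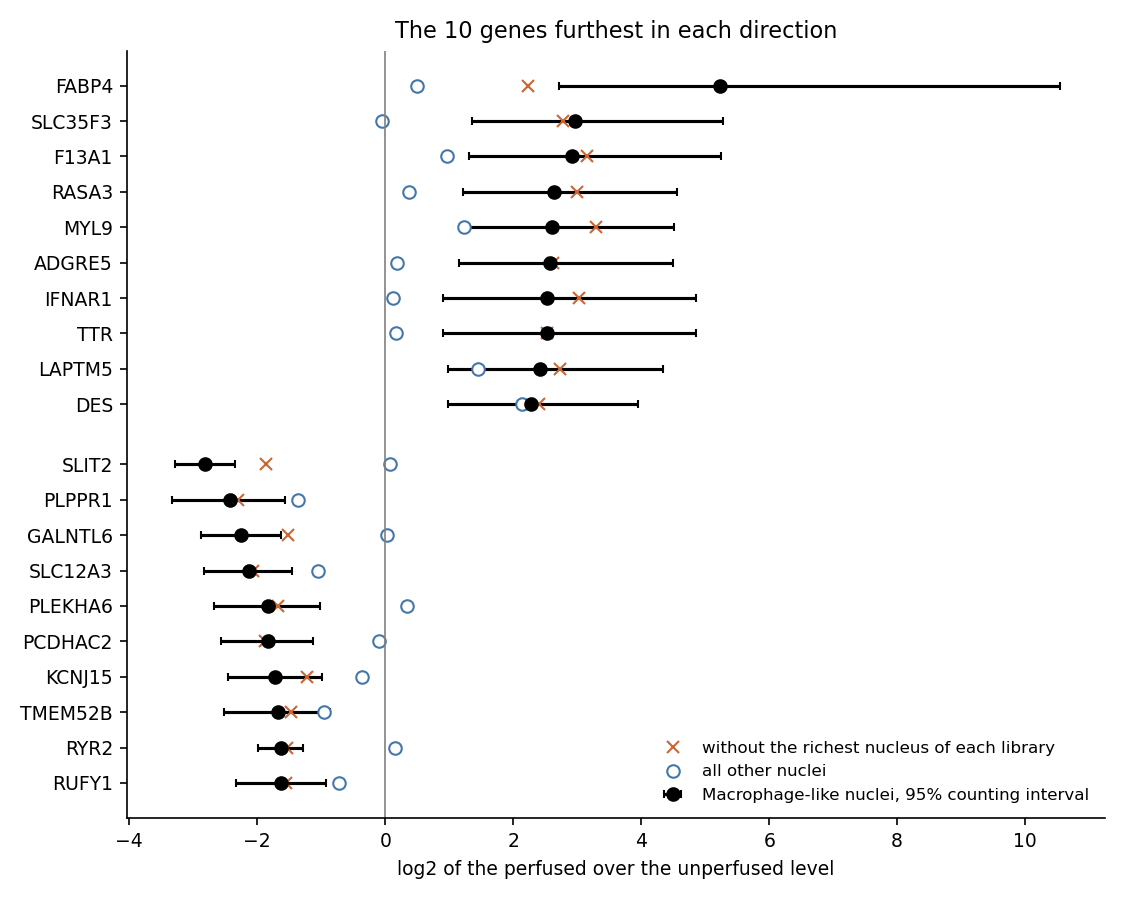
Perfused over unperfused log2 ratio (horizontal axis) of the 10 genes named in each direction, with exact 95% intervals counting UMIs only, crosses for the ratio without the richest nucleus of each library and open circles for all other nuclei. Without those nuclei SLIT2 moves from -2.81 to -1.87, while RASA3 and IFNAR1 stand at 2.99 and 3.02. FABP4 goes from 5.23 to 2.23, the latter against a floor of 3 counts as no unperfused UMI was left.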

How the data were processed

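Nuclei were isolated from snap-frozen cortex and profiled with droplet 3' chemistry in 2 libraries. The authors aligned the reads with Cell Ranger 5.0.1, per the submitters' processing notes, to an Ensembl pig reference with intronic reads counted, and deposited a matrix of UMI counts for each library, not normalized. The matrices hold 7179 and 6205 barcodes, of which 79 and 192 had under 500 genes, so most empty droplets had already been left out. The files hold no coordinates and none are given. The study ran SoupX and filters on genes and mitochondrial UMIs after this step, and neither is in these counts. Of 31908 genes 15354 had no symbol, and 822 of these were named from an identifier table.

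UMIs were summed over the members of each library and divided by their total (Python 3.11.15, scipy 1.17.1). Levels carry exact Poisson, shares exact binomial (Clopper-Pearson) and log2 ratios exact conditional binomial 95% intervals, and a count of 0 was set to 3 over the group in a ratio. No test across libraries was run, because each condition had 1 library. Ratios and list counts used genes with at least 50 UMIs over both libraries. The calculation was tested on simulated data.

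Doublets were kept in the members, and removal of those called by Scrublet (scanpy 1.11.5) was an alternative, as were TMM factors (edgeR 4.0.16), median-of-ratios factors (DESeq2 1.42.0), thinning, other thresholds of the rule and subtraction of an estimated free RNA profile. Alternatives by stromal UMIs and without mitochondrial and ribosomal genes were chosen after seeing the data. Named genes were the rule genes, label markers and list members, the 15 with the largest ratio of members over other nuclei (at least 100 UMIs, an offset of 5 CPM) and the 10 with the largest library ratio in each direction. The members, the 22 gene lists and the 20 marker lists, of whose 471 genes 47 have no row of that symbol, were chosen with earlier results of these data known.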

Additional observations from a re-analysis of the deposited data

Results flagged for a closer look

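In 3 of 45 genes followed across settings, the members and all other nuclei of the same libraries differed in opposite directions, each with an interval that excluded 0. Named genes outside these 45 were not searched for this. SLIT2 had a perfused over unperfused log2 ratio of -2.81 in members (142 and 56 UMIs) and 0.08 in all other nuclei. RYR2 had -1.64 in members (146 and 130 UMIs) and 0.15 in all other nuclei. In stromal-gate nuclei RYR2 went the same way as in members (-0.32, -0.53 to -0.12), and in endothelial-gate nuclei it was at 154 and 122 CPM. PLEKHA6 had -1.84 in members (31 and 24 UMIs) and 0.33 in all other nuclei. The difference between the members and the other nuclei was not itself tested, as there was 1 library per condition. Without the richest nucleus of each library the members' ratios were -1.87, -1.54 and -1.67. At a minimum of 5 rule gene UMIs SLIT2 was at 0.18 and RYR2 at 0.52. SLIT2 was also at 0.71 in members without a stromal UMI, and RYR2 at 0.19 in the rule without CSF1R.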

How the results depend on the processing

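No paired analysis was possible because each condition had 1 library. Counts of 1 to 5 UMIs in unperfused members limit the 10 ratios named as higher, and 14 to 51 unperfused nuclei limit every share. In the sentences below, values are for the unperfused and then the perfused library where both are named, genes past 2-fold are counted as higher or lower in the perfused library, and list values are median log2 ratios. The cause of these shifts was not tested, beyond the fewer nuclei or genes that a setting leaves.

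The share ratio stayed between 2.52 and 3.32 in every setting run except members without a stromal UMI. There it was 1.35, from shares of 0.213% and 0.287% of all eligible nuclei. A minimum of 3 rule gene UMIs gave shares of 0.412% and 1.37%, 5 gave 0.199% and 0.574%, halved limits 0.469% and 1.18% and barcodes thinned to 1000 UMIs 0.322% and 0.825%. The rule without MRC1 gave 0.455% and 1.503%, and the perfused share was 1.49% without CD163, 1.45% without CSF1R and 1.47% without members of 20 or more stromal UMIs.

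Against 176 genes higher and 95 lower, there were 84 and 43 in the rule without CSF1R, 33 and 14 without a stromal UMI, 113 and 43 under 20 stromal UMIs, 277 and 167 with every nucleus weighted equally, 50 and 7 with members thinned to 1000 UMIs and 306 and 185 with free RNA subtracted. A minimum of 20 UMIs per gene gave 584 and 370, and no minimum 1260 and 2742. The richest nuclei left out gave 313 higher, and lower genes were 46 at 5 rule gene UMIs and 61 with halved limits. TMM factors gave 251 and 67 and moved the median of all genes from 0.02 to 0.15, and leaving out the richest nuclei moved it to 0.16.

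At a minimum of 3 rule gene UMIs medians were -0.22 for identity factors, -0.22 for MHC class II, -0.061 for lysosome, -0.45 for cytokines, -0.62 for NF-kB feedback, -0.24 for immediate early, -0.38 for leukocyte signalling and 0.36 for MRTF-SRF targets, and OSR1 was at -0.13. At 5 they were -0.13 for MHC class II, -0.066 for lysosome, -0.12 for lipid, -1.001 for NF-kB feedback, -0.99 for immediate early, -1.13 for heat shock, -0.062 for leukocyte signalling and -0.41 for MRTF-SRF targets, with OSR1 at -0.059, ITGA4 at -1.10, SLIT2 at 0.18, GALNTL6 at 0.00808 and RYR2 at 0.52. Halved limits gave 0.89 for MHC class II, 0.13 for NF-kB feedback, 0.43 for MRTF-SRF targets and 0.42 for KCNJ15. Without CD163 NF-kB feedback was at -0.56 and heat shock at -0.23. Without MRC1 immediate early genes were at -0.072 and MRTF-SRF targets at 0.51. Without CSF1R MHC class II was at -0.17, NF-kB feedback at -0.47, MRTF-SRF targets at 0.30 and RYR2 at 0.19.

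MHC class II was at 0.66 with called doublets removed, 0.85 without a stromal UMI, 0.58 under 20 stromal UMIs, 0.59 with equal weights and 0.53 without the richest nuclei. MRTF-SRF targets were at 0.65 with equal weights and 1.03 without the richest nuclei, and heat shock genes at -0.74 with thinned members. Leukocyte signalling was at -0.056 with equal weights and -0.012 with free RNA subtracted. SLIT2 was at 0.71 without a stromal UMI and NFKBIZ at 0.24 under 20 stromal UMIs. With at least 20 UMIs per gene NF-kB feedback was at -0.47 and immediate early at -0.15, and with no minimum immediate early was at -0.16 and hypoxia at -0.036. Of 675 ratios of 45 genes under an alternative 76 moved and 10 turned in direction, and of 304 other list medians 71 moved.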

Other observations

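The 7 cycling markers in the files summed to 231 CPM in unperfused and 120 CPM in perfused members, against 142 and 119 CPM in all other nuclei, and NUSAP1, a spindle protein, was the most counted with 21 and 56 UMIs. At least 3 UMIs of the list were held by 1 of 51 unperfused and 9 of 123 perfused members.

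HBB, the beta chain of haemoglobin, had 10 UMIs in unperfused and 55 in perfused members (50.3 and 99.99 CPM), and in stromal-gate nuclei it was at 19.5 and 52.5 CPM. Members without a stromal UMI held 1 HBB UMI in each library (26.1 and 16.0 CPM). JCHAIN, which joins secreted antibodies, had 7 UMIs in unperfused and 54 in perfused members (35.2 and 98.2 CPM), but 3 and 2 UMIs in members without a stromal UMI (78.2 and 32.1 CPM). It was at 71.2 and 80.1 CPM in all other nuclei and at 85.7 and 90.2 CPM in tubule-gate nuclei.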
